A study of Homo sapiens with 3 samples.

Results

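The AP-1 and immediate early factors are 10 of the 26108 genes in the deposited expression table, chosen by gene symbol. They comprise the FOS family (FOS, FOSB, FOSL1 and FOSL2), the JUN family (JUN, JUNB and JUND) and 3 further factors, EGR1, IER2 and MYC, and each was listed once. The cells were LX-2, an established human hepatic stellate cell line, given vehicle or recombinant human FGF19 (rhFGF19) at 50 or 100 ng/mL. Poly(A) mRNA of 1 culture per condition was sequenced, so no difference given here has a replicate check. The series design states 24 h of stimulation, whereas the sample descriptions state 72 h for the library titled 50 ng/mL and 73 h for the one titled 100 ng/mL, and they exchange these doses. The doses used here, called the low dose (50 ng/mL) and the high dose (100 ng/mL), follow the sample titles and agent labels.

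Levels are FPKM, fragments scaled to transcript length and to the mapped fragments of the library, written to 2 decimals. The table holds no read counts, and the depth of the libraries is unknown. A value of at least 1 FPKM was listed for 8890 genes in the vehicle library, 10925 at the low dose and 10894 at the high dose. Of 10 hepatic stellate and fibroblast markers, 8 were at 1 FPKM or more in all 3 libraries, with a summed level of 882 FPKM in vehicle and 1041 FPKM at each dose. The highest was VIM, at 439, 654 and 649 FPKM in vehicle, the low dose and the high dose. DES was listed at 0, 0 and 0.08 FPKM and COL1A2 at 0.03, 0.10 and 0.14 FPKM in vehicle, the low dose and the high dose, so these defining markers were at or near 0, while COL1A1 was between 78.4 and 108 FPKM. All 5 endothelial markers were below 0.5 FPKM, and the 5 hepatocyte markers summed to 11.3, 12.5 and 11.4 FPKM, most of it SERPINA1. Of 5 blood cell markers 3 were listed, summing to 52.0, 47.0 and 42.4 FPKM, most of it CD68, and of 4 epithelial markers 3 were listed, summing to 1.19, 0.86 and 1.02 FPKM, most of it CLDN4. The part of these other markers in the differences below was not tested.

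AP-1 is a dimer of basic leucine zipper proteins in which a JUN protein pairs with a FOS protein or with another JUN protein and binds a short palindromic DNA element. Growth factor receptors, FGF receptors among them, feed through RAS and ERK to serum response factor and its ETS partners at the promoters of FOS, EGR1 and IER2, whose transcripts are made within minutes and decay quickly, while FOSL1 and FOSL2 are made later and last longer. In hepatic stellate cells AP-1 is known for its place in activation to the matrix-producing state.

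In vehicle the order of the levels was FOSL1, JUND, IER2, JUN, JUNB, FOSL2, MYC, EGR1, FOSB and FOS. At both doses it was FOSL1, JUN, IER2, JUND, FOSL2, JUNB, MYC, EGR1, FOSB and FOS. JUN therefore stood in place 4 in vehicle and in place 2 at both doses, while JUND stood in place 2 and then in place 4. With 1 library per condition the order of neighbours with close levels, such as IER2 and JUND at 40.9 and 37.0 FPKM at the low dose, has no measured spread behind it.

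**Figure D1:**
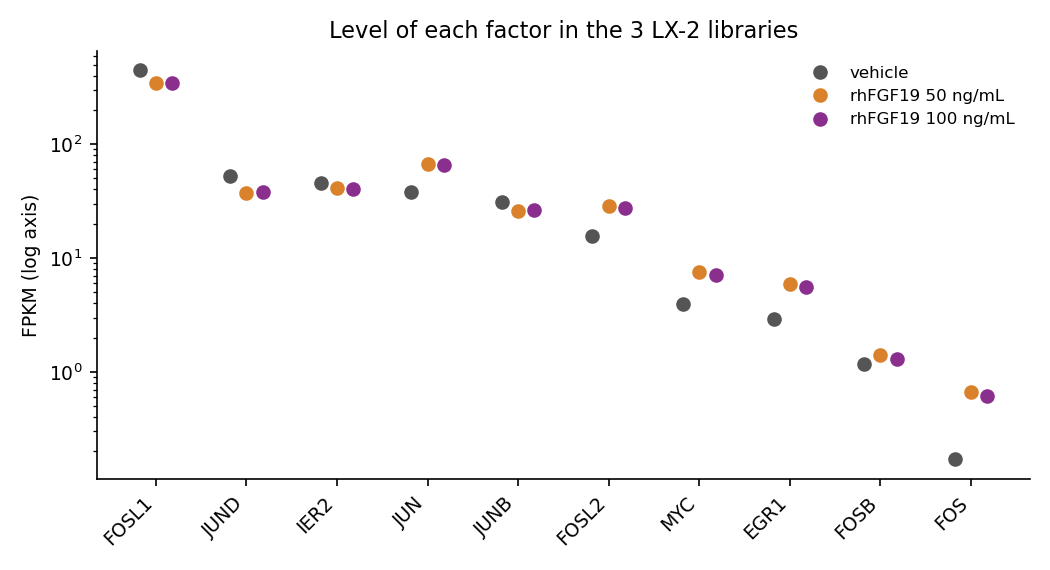
Level in FPKM (log axis) of each of the 10 factors in the vehicle, low dose (50 ng/mL) and high dose (100 ng/mL) libraries, 1 point per library, ordered by the vehicle level. FOSL1 is highest in all 3 libraries, between 344 and 446 FPKM, and FOS is lowest, between 0.17 and 0.66 FPKM.

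FOSL1 (ENSG00000175592), which encodes the late FOS family protein Fra-1, lies at chr11:65892049-65900419 on the reverse strand of GRCh38. Its level was 446 FPKM in vehicle, 344 FPKM at the low dose and 345 FPKM at the high dose. It was the most abundant of the 10 factors in each library and had rank 96, 93 and 94 among the 26108 listed genes. The difference from vehicle in log2(FPKM + 0.1) was -0.37 at each dose, lower than vehicle, although quantile normalization of the libraries turned it to 0.03 and 0.02. Removing the trend on transcript length gave -0.80 at each dose, and removing that on transcript GC content gave -0.04 and -0.06.

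FOSL2 (ENSG00000075426), which encodes Fra-2, lies at chr2:28392448-28417312 on the forward strand. Its level was 15.5 FPKM in vehicle, 28.4 FPKM at the low dose and 27.3 FPKM at the high dose. Both rhFGF19 libraries were above vehicle, by 0.87 and 0.81 on the log2(FPKM + 0.1) scale, short of the 2-fold (a log2 difference of 1) used here to call a gene higher or lower; removing the trend on transcript length left 0.00 and -0.04. The gene overlaps FLJ31356 on the opposite strand, which was at 0.04 FPKM or less in all 3 libraries.

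FOS (ENSG00000170345), the classic immediate early partner of JUN, lies at chr14:75278826-75282230 on the forward strand. Its level was 0.17 FPKM in vehicle, 0.66 FPKM at the low dose and 0.62 FPKM at the high dose. These values lie near the lower limit of the table, and their mean of 0.48 FPKM is below the 0.5 FPKM required for the comparisons, so the counts of calls in the deposited values rest on the other 9 factors. Its difference was 1.49 and 1.42 on the log2(FPKM + 0.1) scale at the low and the high dose, and lay between 0.47 and 1.91 over the alternative pseudocounts and scalings.

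FOSB (ENSG00000125740), another early FOS family gene, lies at chr19:45467995-45475179 on the forward strand. Its level was 1.18 FPKM in vehicle, 1.40 FPKM at the low dose and 1.29 FPKM at the high dose, which are close to each other. The differences of 0.23 and 0.12 on the log2(FPKM + 0.1) scale changed sign with quantile normalization (-0.66 and -0.75), with the length trend removed (-0.54 and -0.63) and, at the high dose, with median scaling (-0.09). Median scaling here divides each rhFGF19 library by its median ratio to vehicle over the 8586 genes that were at 1 FPKM or more throughout, a shift of 0.23 and 0.22 log2 units. FOSB overlaps ERCC1 on the opposite strand, which was at 41.3, 30.9 and 31.2 FPKM in vehicle, the low dose and the high dose. Whether reads were assigned by strand is not given in the sources used here, so reads of the overlapping genes may not have been told apart and the level of FOSB is uncertain.

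Among FOS family transcripts FOSL1 made up 96.4% of the summed FPKM in vehicle, 91.9% at the low dose and 92.2% at the high dose. The share of FOSL2 was 3.36%, 7.58% and 7.29%, and FOS and FOSB together held the small remainder. The ratio of the FOSL1 level to the FOSL2 level was 28.7 in vehicle, 12.1 at the low dose and 12.6 at the high dose. A share or ratio within a library does not change when all its values are multiplied by one factor. It can change where a trend on GC content or length is removed, which shifts genes by different amounts. At the low dose the log2 differences of FOSL2 and FOSL1 were 0.87 and -0.37. They were 0.93 and -0.04 with the GC trend removed and 0.00 and -0.80 with the length trend removed.

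JUN (ENSG00000177606), which encodes c-Jun, the JUN family member with the strongest transactivation, lies at chr1:58780791-58784047 on the reverse strand and has 1 exon. Its level was 38.2 FPKM in vehicle, 67.1 FPKM at the low dose and 65.03 FPKM at the high dose. Both rhFGF19 libraries were above vehicle, by 0.81 and 0.77 on the log2(FPKM + 0.1) scale, again short of 2-fold; removing the trend on transcript length turned the differences to -0.07 and -0.10.

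JUND (ENSG00000130522), which encodes a JUN family protein present in most resting cells, lies at chr19:18279694-18281622 on the reverse strand and also has 1 exon. Its level was 52.4 FPKM in vehicle, 37.0 FPKM at the low dose and 38.4 FPKM at the high dose. Both rhFGF19 libraries were below vehicle, with differences of -0.50 and -0.45 on the log2(FPKM + 0.1) scale. Removing the trend on transcript GC content gave 0.11 and 0.16, whereas removing that on transcript length gave -1.10 and -1.04.

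JUNB (ENSG00000171223), whose protein is a weaker activator than c-Jun, lies at chr19:12791486-12793315 on the forward strand and has 1 exon. Its level was 30.8 FPKM in vehicle, 26.0 FPKM at the low dose and 26.4 FPKM at the high dose. The rhFGF19 libraries were slightly below vehicle, with log2(FPKM + 0.1) differences of -0.25 and -0.22 that became 0.26 and 0.27 once the GC trend was removed. With the length trend removed they were -0.84 and -0.80, and with median scaling -0.47 and -0.45.

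Of the summed FPKM of the JUN family, JUN made up 31.4% in vehicle, 51.6% at the low dose and 50.1% at the high dose. The share of JUND was 43.2%, 28.5% and 29.6%, and that of JUNB was 25.4%, 19.96% and 20.3%. JUND was thus the leading JUN family transcript in vehicle and JUN at both doses. The ratio of the JUN level to the JUND level was 0.728 in vehicle, 1.81 at the low dose and 1.69 at the high dose. Summed over the families, FOS family levels were 3.81 times those of the JUN family in vehicle and 2.88 times at each dose.

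**Figure D2:**
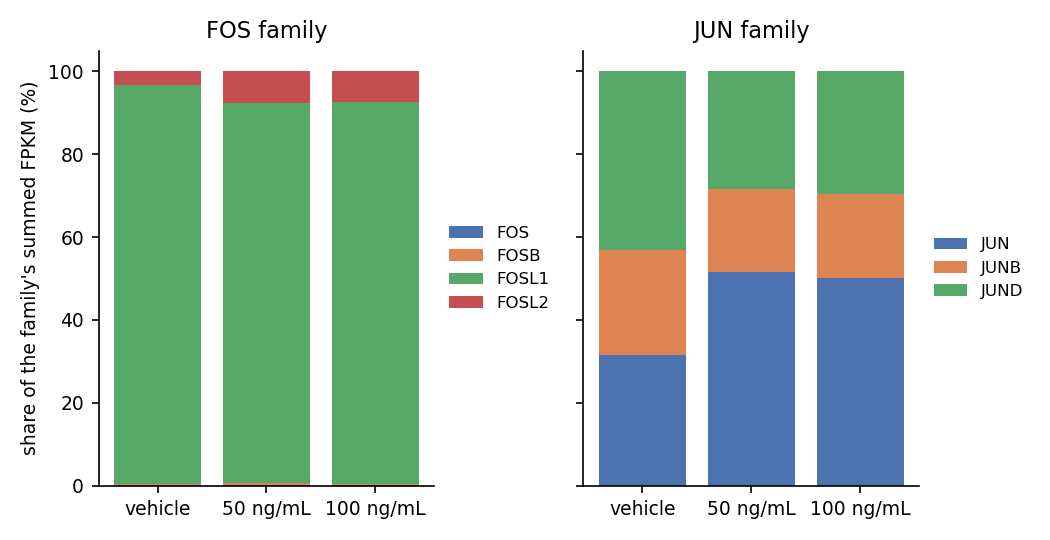
Share (%) of each gene in the summed FPKM of the FOS family and of the JUN family in the vehicle, low dose (50 ng/mL) and high dose (100 ng/mL) libraries. FOSL1 holds 91.9% to 96.4% of the FOS family, and JUN holds 31.4% of the JUN family in vehicle, 51.6% at the low dose and 50.1% at the high dose.

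The DNA before the start sites of JUN and JUND is shown because these genes share a family and an exon structure but had log2 differences of opposite sign in the deposited values. RefSeq promoter windows (GRCh38.p14) were found for 8 of the 10 factors by symbol, excluding FOSL1, and MYC was not searched. The 250 bases before each start were searched on both strands for TGACTCA and TGACGTCA (elements known to bind AP-1 and related factors), GGGCGG (the core of the Sp1 element), TATAAA and the CArG box (the element of serum response factor); TGACATCA, a variant AP-1 element known from the JUN promoter, was added after the windows were seen. The JUN window lies at chr1:58784048-58784297 and the JUND window at chr19:18281623-18281872, both printed 5′ to 3′ on the reverse strand with every match in capitals.
JUN: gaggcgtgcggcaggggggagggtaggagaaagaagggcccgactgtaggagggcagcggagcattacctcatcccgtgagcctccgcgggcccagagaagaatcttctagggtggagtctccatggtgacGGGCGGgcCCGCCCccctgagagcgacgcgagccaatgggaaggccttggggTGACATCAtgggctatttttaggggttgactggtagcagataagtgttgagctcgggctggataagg
JUND: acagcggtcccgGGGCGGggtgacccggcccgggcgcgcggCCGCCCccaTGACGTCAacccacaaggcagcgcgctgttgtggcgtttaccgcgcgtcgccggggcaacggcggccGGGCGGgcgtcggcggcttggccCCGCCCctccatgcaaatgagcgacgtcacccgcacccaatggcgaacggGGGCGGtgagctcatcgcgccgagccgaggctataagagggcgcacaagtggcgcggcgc
JUN held TGACATCA, beginning 67 bases before the start, and GGGCGG in 2 places. JUND held TGACGTCA, beginning 200 bases before the start, and GGGCGG in 5 places, and the GC content of the windows was 62.0% for JUN and 74.8% for JUND. TGACGTCA was found in 1.77% and TGACATCA in 2.45% of the 27305 RefSeq windows searched in the same way. A match describes letters in a window and no binding was measured.

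EGR1 (ENSG00000120738), a zinc finger factor and a standard readout of ERK signalling, lies at chr5:138465479-138469303 on the forward strand and has 2 exons. Its level was 2.89 FPKM in vehicle, 5.97 FPKM at the low dose and 5.60 FPKM at the high dose. Both rhFGF19 libraries were above vehicle, by 1.02 and 0.93 on the log2(FPKM + 0.1) scale, which is just past 2-fold at the low dose and just short of it at the high dose. The difference was above 0 under all alternative settings, between 0.11 and 1.17, but at the low dose it no longer passed 2-fold with a pseudocount of 1 (0.84), with median scaling (0.80), with quantile normalization (0.33) or with the GC trend (0.96) or the length trend (0.19) removed.

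The windows of EGR1 (chr5:138465229-138465478) and FOS (chr14:75278578-75278825), both forward strand, are shown as those of the factors with the highest log2 differences, FOS being below the filter. Bases before the listed gene start are printed, with matches to the same motifs in capitals.
EGR1: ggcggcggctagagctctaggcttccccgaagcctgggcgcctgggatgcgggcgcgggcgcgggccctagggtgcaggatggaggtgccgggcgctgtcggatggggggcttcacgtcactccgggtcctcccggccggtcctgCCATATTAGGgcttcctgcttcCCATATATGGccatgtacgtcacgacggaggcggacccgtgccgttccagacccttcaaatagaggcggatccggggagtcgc
FOS: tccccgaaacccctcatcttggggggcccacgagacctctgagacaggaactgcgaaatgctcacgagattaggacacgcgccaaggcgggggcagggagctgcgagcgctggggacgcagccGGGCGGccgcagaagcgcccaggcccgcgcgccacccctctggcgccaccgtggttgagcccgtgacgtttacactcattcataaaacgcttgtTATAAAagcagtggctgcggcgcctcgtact
Within the windows searched, EGR1 was the only one of the 8 factors with a CArG box. The box occurred at 2 places, beginning 105 and 83 bases before the start, and was found in 1.14% of all windows. DNA further upstream was not searched, so absence from a window does not show that FOS or another factor lacks a CArG box. FOS held 1 GGGCGG and, beginning 33 bases before its RefSeq start, TATAAA; that start lies 2 bases after the listed gene start, so 248 bases are printed. TATAAA was found in 3 of the 8 factors, FOS, FOSB and JUNB, against 11.1% of all windows, GGGCGG in 6 of the 8 against 42.3%, and TGACTCA in 0 of the 8 against 4.16%.

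IER2 (ENSG00000160888), which encodes a nuclear protein induced by serum, lies at chr19:13150411-13154911 on the forward strand. Its level was 45.5 FPKM in vehicle, 40.9 FPKM at the low dose and 40.7 FPKM at the high dose. In the deposited values these were nearly level, with log2(FPKM + 0.1) differences of -0.15 and -0.16. The differences became 0.08 and 0.04 with quantile normalization and 0.28 and 0.26 with the GC trend removed. They became -0.90 and -0.89 with the length trend removed and -0.38 at each dose with median scaling. The ratio of the EGR1 level to the IER2 level was 0.064 in vehicle, 0.146 at the low dose and 0.138 at the high dose.

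MYC (ENSG00000136997), a factor of growth and cell division that is also induced early by mitogens, was at 3.97 FPKM in vehicle, 7.55 FPKM at the low dose and 7.14 FPKM at the high dose. Both rhFGF19 libraries were above vehicle, by 0.91 and 0.83 on the log2(FPKM + 0.1) scale, short of 2-fold. Its difference was above 0 under all alternative settings, between 0.20 and 1.05.

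At the low dose, 1 of the 9 factors that passed the filter, EGR1, was more than 2-fold higher than vehicle, against 39.4% of the 12447 genes tested, and 0 were more than 2-fold lower, against 1.78%. At the high dose the counts were 0 higher, against 38.5% of genes, and 0 lower, against 1.58%. Past 1.5-fold, FOSL2, JUN, EGR1 and MYC were higher at each dose, 4 of 9, against 50.9% of genes at the low dose and 50.7% at the high dose. No factor was more than 1.5-fold lower, against 13.6% and 12.6% of genes. At 2-fold the share of factors called higher was below that of all genes, and at 1.5-fold it was near it. Both comparisons share the vehicle library.

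The median log2 difference from vehicle over the 9 factors was 0.23 at the low dose and 0.12 at the high dose, beside 0.62 and 0.61 over all genes tested. This order turned under 2 settings. Without the filter the medians were 0.52 and 0.44 over the 10 factors, beside 0.27 at each dose over all genes. With the GC trend removed they were 0.40 and 0.27, beside 0.008 and 0.005. Measured from the all-gene median of the deposited values, EGR1 was at 0.40 and 0.32, MYC at 0.29 and 0.22, FOSL2 at 0.25 and 0.19 and JUN at 0.20 and 0.15. FOSB was at -0.39 and -0.50, IER2 at -0.77 and -0.77, JUNB at -0.86 and -0.84, FOSL1 at -0.99 and -0.99 and JUND at -1.12 and -1.06. Relative to the other genes of the table, then, 4 factors lay slightly above the middle and 5 below it, and EGR1, at percentile 61.2 at the low dose and 59.0 at the high dose of the tested genes, was the highest of the 9. JUND was the lowest, at percentile 17.1 and 18.4. Among called genes at the low dose 95.7% were higher in the deposited values, but median scaling gave 82.9%, and the share was 48.9% after quantile normalization, 43.2% with the GC trend removed and 46.1% with the length trend removed. At the high dose it was 96.1%, and 85.8%, 48.5%, 42.9% and 47.1% in the same order. Median scaling, taken over fewer genes, did not bring the median over all genes tested to 0: that median was 0.40 at each dose, beside 0.77 and 0.74 with TPM and 0.11 and 0.09 with quantile normalization.

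**Figure D3:**
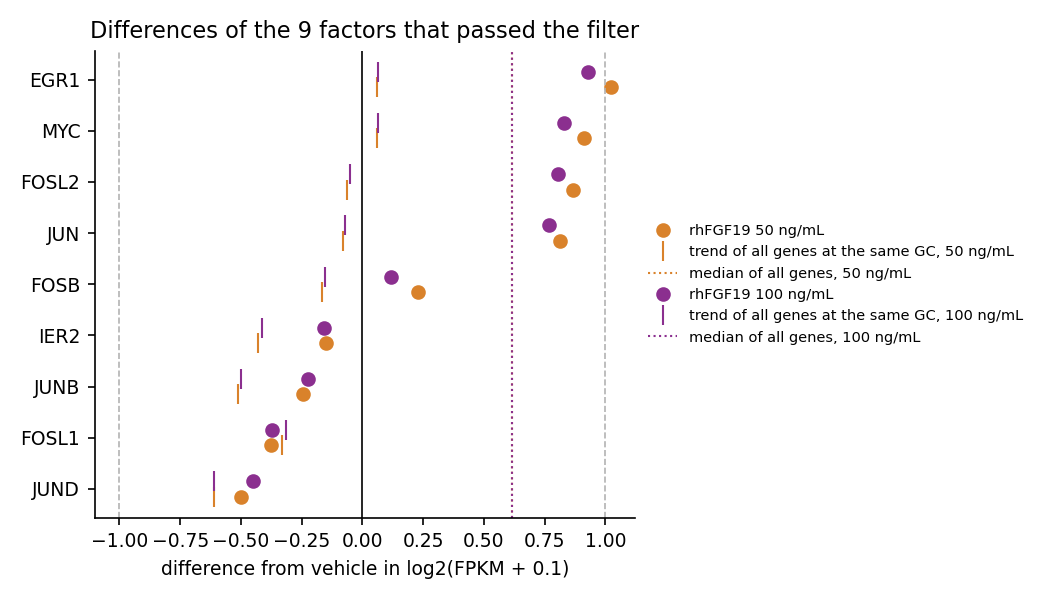
Difference from vehicle in log2(FPKM + 0.1) of the 9 factors that passed the filter at the low and the high dose rhFGF19 (points), with the trend of all genes at the same transcript GC content (short vertical marks), the median of all genes tested (dotted) and the 2-fold limits (dashed). EGR1 at 1.02 is the only point past a limit in the deposited values, and all points except those of FOSL1 lie to the right of their GC marks, whereas with the length trend removed the differences of FOSL2, JUN, EGR1 and MYC lie between -0.10 and 0.26.

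Differences from vehicle varied with the GC content of the transcripts over the whole table. Genes with a GC content of 37.5 to 42.5% had a median log2 difference of 1.497 at the low dose, and those of 57.5 to 62.5% had -0.37. The 9 factors had GC contents of 55.4 to 69.7%, with a median of 57.7% against 51.2% for all genes tested. Among the 4360 tested genes with a GC content of at least 55.4%, the median log2 difference was -0.38 at the low dose and -0.37 at the high dose, and 3.65% and 3.19% were more than 2-fold higher. The trend value at the GC content of EGR1 was 0.06 at the low dose, and the value of EGR1 exceeded it by 0.96; for FOSL2, JUN and MYC the excess was 0.93, 0.89 and 0.85. At the high dose the excess of EGR1, FOSL2, JUN and MYC was 0.87, 0.86, 0.84 and 0.77. FOSB, IER2, JUNB and JUND exceeded their trend values at the low dose by 0.40, 0.28, 0.26 and 0.11, and FOSL1 lay -0.04 from its own. Of all tested genes with a GC value, 4.27% exceeded their trend value at the low dose by more than EGR1 did and 5.55% by more than MYC, the lowest of these 4; at the high dose 4.97% and 6.54% did. Among the genes with a GC content of at least 55.4% the shares were 7.18% and 9.04% at the low dose and 8.05% and 10.1% at the high dose. For FOSB, IER2, JUNB and JUND the share of all genes with a larger excess at the low dose was 20.3%, 27.8%, 28.8% and 41%.

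Transcript length gave another order. The trend value of all genes at the transcript length of JUN (3540 bases) was 0.88 at the low dose, close to its difference of 0.81, and that at the length of FOSL2 (3359 bases) was 0.86, close to 0.87. At the length of EGR1 (3138 bases) it was 0.84 and at that of MYC (2042 bases) 0.65, both below the measured differences. For FOSL1 (1200 bases) the length trend was 0.43 and for JUND (1863 bases) 0.60, far above their negative differences. The parts of rhFGF19, GC content and length in these differences cannot be told apart with 1 library per condition.

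Between the rhFGF19 libraries, which is the comparison without the vehicle library, 0 of the 9 factors were more than 2-fold apart, against 1.74% of all genes. The largest log2(FPKM + 0.1) difference of the high from the low dose was that of FOSB, at -0.11, followed by EGR1 at -0.09 and MYC at -0.08. FOSL1 and IER2 differed by 0.00 and -0.01. The standard deviation of this difference over all tested genes was 0.34. It was 0.35 for the 4853 genes with a mean of 1 to 5 FPKM, the range of EGR1 and FOSB, where 95% of genes were within 0.55. It was 0.15 at 5 to 20 FPKM, the range of MYC, and 0.16 at 20 to 100 FPKM, the range of FOSL2, JUN, JUNB, JUND and IER2. For every factor that passed the filter the difference from vehicle was larger than its gap between the doses, which stands in for no replicate error because the libraries differ in dose and in stated time.

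The 3 genes nearest to FOSL1 in log2(FPKM + 0.1) over the 3 libraries were RPL3, P4HB and PSMD2, at Euclidean distances of 0.04, 0.13 and 0.17. RPL3 was at 453, 346 and 353 FPKM in vehicle, the low dose and the high dose. Nearest to JUN were YWHAH, HNRNPF and PA2G4, at distances of 0.10, 0.13 and 0.15, with YWHAH at 35.7, 66.6 and 63.6 FPKM. Nearest to EGR1 were SPRY4, UBN1 and SNAI2, at distances of 0.06, 0.06 and 0.08, with SPRY4 at 2.98, 6.09 and 5.73 FPKM.

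Related genes were described by their counts past 2-fold in the deposited values, to be read beside 39.4% of all genes higher at the low dose and 38.5% at the high dose, or 3.85% and 3.39% with the GC trend removed. Of the AP-1 partners and related bZIP factors, 14 of 15 were listed, 12 passed the filter and 3 were higher at each dose, with a median log2 difference of 0.81 and 0.66. With the GC trend removed 0 were higher and 1 was lower at the low dose, BATF3 at -1.02, against 628 of 12397 genes. The median changed sign with the length trend removed (-0.06 and -0.11) and, at the high dose, with quantile normalization (-0.06). CREB1 was at 1.37 and 1.41, ATF2 at 1.06 and 1.26, ATF7 at 0.93 and 0.95, and BATF3, a partner of JUN proteins, at -0.97 and -0.79 log2 units from vehicle at the low and the high dose. Of 26 other immediate early genes 20 passed the filter and 9 were higher at each dose, with medians of 0.87 and 0.81; 3 and 2 were higher with the GC trend removed, KLF6 and KLF4 at each dose and ZFP36 at the low dose. SGK1 was at 1.75 and 1.62, NFIL3 at 1.65 and 1.61, KLF6 at 1.57 and 1.44 and GADD45B at -0.23 and -0.26 log2 units from vehicle. EGR2, EGR3 and EGR4, the paralogs of EGR1, were all below 0.2 FPKM in every library and did not pass the filter, and were picked out after their values were seen.

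In the ERK, JNK and p38 route to the immediate early promoters, 26 of 28 genes passed the filter, and 14 were more than 2-fold higher at the low dose and 13 at the high dose, with medians of 1.08 and 0.96, against 39.4% and 38.5% of all genes. With the GC trend removed these counts were 0, against 3.85% and 3.39% of all genes, and the medians were 0.06 and 0.08. MAPK8 was at 1.79 and 1.88, MAPK9 at 1.63 and 1.67 and RPS6KA4, a kinase that acts on the chromatin of early genes, at -0.94 and -0.91 log2 units from vehicle. Among 8 ERK phosphatase and Sprouty feedback genes, 4 were higher at the low dose and 3 at the high dose, with medians of 0.98 and 0.95, and 1 at each dose, SPRY4, with the GC trend removed. DUSP6 was at 1.25 and 1.26, SPRED1 at 1.17 and 1.15, SPRY2 at 1.002 and 1.06 and DUSP5 at 0.08 and 0.06 log2 units.

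Of 15 well known AP-1 target genes, all of which passed the filter, 1 was more than 2-fold higher at each dose, against 39.4% and 38.5% of all genes, and 0 were lower. With the length trend removed 2 and 1 were lower, against 2032 and 1892 of 12397 genes. Removing the GC trend gave 1 lower at the high dose, against 560 of 12397 genes. After rescaling to TPM 6 and 4 were higher, against 44.4% and 43.1% of all genes, and after quantile normalization 3 and 3, against 9.52% and 8.68%. The list had median log2 differences of 0.73 and 0.42 that became -0.02 and -0.01 with the GC trend removed and, at the high dose, -0.40 with the length trend removed. The 1 called was the chemokine CXCL8, at 47.4, 143 and 146 FPKM in vehicle, the low dose and the high dose. Its differences of 1.60 and 1.62 fell to 0.09 and 0.12 with the GC trend removed, and the 1 gene then called higher was CCND1, at 1.39 and 1.41 (0.91 and 0.94 in the deposited values). IL6 was at 0.97 and 0.89, HBEGF at 0.96 and 0.90 and TIMP1 at -0.75 and -0.68 log2 units from vehicle. Of 10 MYC partners and antagonists 7 passed the filter and 2 were higher at each dose, with medians of 0.49 and 0.41. None of the 7 was higher with the GC trend removed, and removing the length trend turned the median to -0.03 at the high dose. MAX, the obligate partner of MYC, was at 0.60 and 0.59, MNT at 0.49 and 0.41, MLX at 0.36 and 0.14 and MXD4 at -0.54 and -0.51 log2 units. Of 10 housekeeping genes 2 were higher at each dose, with medians of 0.36 and 0.38 that became -0.40 and -0.32 with the GC trend removed and -0.14 and -0.06 with the length trend removed; HPRT1 was at 1.57 and 1.35, YWHAZ at 1.53 and 1.58, B2M at 0.97 and 0.94 and RPLP0 at -0.66 and -0.64 log2 units.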

How the data were processed

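Poly(A) mRNA of LX-2 cells was sequenced in paired-end libraries on an Illumina HiSeq instrument. HISAT2 was the aligner, and the table deposited by the authors holds FPKM; the submitters' processing notes name HISAT2 2.0, StringTie 1.3.0 and Bowtie 0.12.2 without roles, and the builds hg19 and mm8. The coordinates overlapped GRCh38 (GENCODE v29) for 25527 of the 25531 genes with a shared identifier and are given as GRCh38. The deposited values hold no read counts, so depth remained unknown.

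Differences between single libraries were taken on log2(FPKM + 0.1), which understates low genes, for genes averaging 0.5 FPKM or more, and called past 2-fold. No test was possible. Transcript GC content and length were medians over the transcripts listed per gene (GENCODE v29), found for 99.6% of tested genes. Trends were removed by loess with a span of 0.3. Other pseudocounts, filters, scalings, thresholds and the summing of shared symbols were tried. Lists were summarised by counts and medians. The genes named were all 10 factors, in each list the 3 highest and 1 lowest by mean difference at a mean of at least 1 FPKM, the 3 genes nearest to FOSL1, JUN and EGR1 and the list genes called higher with the GC trend removed; 1 gene this rule picked is not reported here. The factors and lists were chosen with earlier results of these data known. Python 3.11.15, NumPy 2.4.6, pandas 2.3.3, SciPy 1.17.1, statsmodels 0.14.6 and matplotlib 3.10.9 were used. The calculation was tested on simulated data, made by putting known changes larger than 2-fold into deposited low dose values. That test left out genes of low level and changes close to 2-fold.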

Additional observations from a re-analysis of the deposited data

How the results depend on the processing

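At the low dose the number of factors called higher than vehicle, 1 in the deposited values, was 2 without a filter on low values, where 26.6% of all genes were called higher, and 2 after rescaling to TPM, against 44.4% of all genes. It was 4 past 1.5-fold, against 50.9%. It was 0 with a pseudocount of 1, with median scaling over the 8586 genes at 1 FPKM or more throughout, with the GC trend removed and with the length trend removed, where the shares of all genes were 17.6%, 30.4%, 3.85% and 14%. Median scaling left the median over all genes tested at 0.40. Quantile normalization also gave 1, against 9.52% of all genes, but it was JUN at 1.02 and not EGR1 at 0.33. At the high dose the number, 0 in the deposited values, was 1 without the filter (FOS), 1 with TPM (EGR1) and 4 past 1.5-fold, against 26.3%, 43.1% and 50.7% of all genes. The number called lower was 0 at each dose and 1 with the length trend removed (JUND at -1.10 and -1.04), a setting that called 2032 and 1892 of 12397 genes lower. The median over the factors was then -0.54 at the low dose and -0.63 at the high dose, and median scaling gave 0.02 and -0.09. In the other direction, that median was 0.52 and 0.44 without the filter, 0.40 and 0.27 with the GC trend removed and 0.37 and 0.23 with TPM. In the related lists the counts higher at the low dose with median scaling, TPM and quantile normalization were 1, 5 and 0 for the bZIP factors, 7, 10 and 4 for other immediate early genes and 11, 14 and 3 for the ERK, JNK and p38 route. They were 1, 5 and 0 for the feedback genes, 1, 6 and 3 for AP-1 targets, 1, 2 and 0 for MYC partners and 2, 3 and 4 for housekeeping genes. With a pseudocount of 1 the counts were 0, 8, 9, 1, 1, 0 and 2 in the same order of lists. A mean of at least 1 FPKM left 0 of the 5 MYC partners that then passed, against 37.9% of all genes. Counts lower at the low dose were 0 in each list in the deposited values. Median scaling gave 1 lower bZIP factor of 12 and 2 lower genes of 26 in the kinase route, against 783 of 12447 genes. With the length trend removed these were 1 and 3, beside 2 each for AP-1 targets, MYC partners and housekeeping genes, against 2032 of 12397 genes. Quantile normalization gave 1 lower bZIP factor, against 1237 of 12447 genes. Removing the GC trend gave 1 lower bZIP factor and 1 lower housekeeping gene, against 628 of 12397 genes. Past 1.5-fold, 1 bZIP factor, 4 genes of the kinase route, 1 AP-1 target and 1 housekeeping gene were lower, against 13.6% of all genes. FOS dropped out of the trend settings because of the filter; the causes of the other changes were not tested. Differences of single factors moved by more than the standard deviation between the rhFGF19 libraries, 0.34, in 40 of their values and by less in 96, not counting the 3 settings that cannot change a single difference. No paired analysis was possible because each condition had 1 library, which also left no library to leave out.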

Other observations

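JUN and JUND were not the only related genes with log2 differences of opposite sign. In the kinase route to the immediate early promoters, 3 pairs of related genes were picked after their values were seen because they had a similar gap, so they are examples and their number and direction carry no weight. The ratio of the MAP2K1 level to the MAP2K2 level, the kinases MEK1 and MEK2, was 0.416 in vehicle, 1.19 at the low dose and 1.08 at the high dose. The ratio of ELK3 to ELK1 was 0.088, 0.326 and 0.306 in the same libraries, and that of RPS6KA3 to RPS6KA1 was 0.054, 0.212 and 0.212. The gap for JUN over JUND in the log2 difference from vehicle was 1.31 at the low dose and 1.22 at the high dose, and became 0.78 and 0.67 with the GC trend removed. That of RPS6KA3 over RPS6KA1 was 1.89 at each dose and became 0.22 and 0.25. For ELK3 over ELK1 the gap was 1.87 and 1.78 and became 1.14 and 1.07. For MAP2K1 over MAP2K2 it was 1.51 and 1.38 and became 0.83 and 0.72. Whether these gaps would recur in other cultures was not tested.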
